A study of Mus musculus with 28 samples.

Results

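The genes described here are 10 transcripts commonly used to read how macrophages are polarized: Arg1, Nos2, Acod1, Chil3, Retnla, Ear2, Il10, Irf4, Mgl2 and Ccl17. They were taken by symbol, and all 10 were found among the 56980 genes of the bulk RNA-seq count table and among the 32285 genes of the single-cell matrices. The vessels came from male and female C57BL/6 mice that had all undergone 5/6 nephrectomy and, weeks later, an arteriovenous fistula (AVF) in which the cut jugular vein was sewn end-to-side onto the carotid artery. Bulk libraries were made from single vessels, namely 7 contralateral jugular veins, 8 early AVFs (day 3 in the labels), 5 mid AVFs (day 10) and 5 late AVFs (day 21). Each of the 3 single-cell libraries (contralateral, early, late) was made from a pool of 10 vessels, so no test between conditions was possible there. The contralateral veins came from nephrectomized, fistula-bearing animals and are not naive vessels, the labels do not tie a vein to an AVF of the same mouse, and the study's methods give a spread of several days around the early time point. The methods also place both single-cell AVF collections later than the bulk collections of the same name, so early and late do not mark the same days in the 2 data types.

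Macrophages change their gene expression with the signals they meet. Interferon-γ and microbial products induce the classical genes, of which Nos2 makes nitric oxide from arginine and Acod1 makes itaconate from a Krebs cycle intermediate. Interleukin-4 and interleukin-13, acting through STAT6, induce the alternative genes of the mouse. Among them are Arg1, which hydrolyzes arginine to ornithine and urea, the secreted lectin Chil3 (Ym1) and the secreted resistin-like protein Retnla (Fizz1). Others are the galactose-type lectin receptor Mgl2, the chemokine Ccl17 and the transcription factor Irf4. Il10 is an anti-inflammatory cytokine, and Ear2 is a ribonuclease of the eosinophil-associated family that is also expressed by some macrophages and monocytes.

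Promoter windows (250 bases before to 50 bases after the RefSeq start, GRCm38.p6) were held for 7 of the 10 genes in a table of 32851 windows; Arg1, Nos2 and Il10 were not among them. The windows of 4 genes are shown because they moved in the bulk data in different ways: Acod1 and Ccl17 were higher in all 3 AVF groups, Chil3 was called higher in the early AVFs, and Retnla was lower in all 3. Sequences read 5′ to 3′ on the gene's strand, with capitals marking each match to 1 of 7 motifs searched on both strands. Acod1 lies at chr14:103046762-103047061 (plus strand), Chil3 at chr3:106167515-106167814 (minus strand), Retnla at chr16:48842359-48842658 (plus strand) and Ccl17 at chr8:94810203-94810502 (plus strand).
Acod1: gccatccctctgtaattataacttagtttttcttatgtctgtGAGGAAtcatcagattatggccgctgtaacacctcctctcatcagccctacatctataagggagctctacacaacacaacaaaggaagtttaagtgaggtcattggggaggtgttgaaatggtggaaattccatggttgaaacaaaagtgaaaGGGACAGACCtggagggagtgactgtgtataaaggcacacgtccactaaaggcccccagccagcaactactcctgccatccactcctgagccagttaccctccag
Chil3: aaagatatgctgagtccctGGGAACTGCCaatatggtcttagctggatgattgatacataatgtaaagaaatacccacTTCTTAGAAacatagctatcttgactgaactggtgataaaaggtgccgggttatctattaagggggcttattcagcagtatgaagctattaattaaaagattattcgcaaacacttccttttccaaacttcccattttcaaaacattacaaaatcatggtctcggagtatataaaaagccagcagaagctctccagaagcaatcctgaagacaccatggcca
Retnla: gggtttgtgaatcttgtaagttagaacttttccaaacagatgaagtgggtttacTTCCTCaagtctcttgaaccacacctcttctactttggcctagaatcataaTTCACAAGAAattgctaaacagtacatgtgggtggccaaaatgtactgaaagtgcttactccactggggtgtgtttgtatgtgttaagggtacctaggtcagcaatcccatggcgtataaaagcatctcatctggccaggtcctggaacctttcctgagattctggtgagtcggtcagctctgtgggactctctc
Ccl17: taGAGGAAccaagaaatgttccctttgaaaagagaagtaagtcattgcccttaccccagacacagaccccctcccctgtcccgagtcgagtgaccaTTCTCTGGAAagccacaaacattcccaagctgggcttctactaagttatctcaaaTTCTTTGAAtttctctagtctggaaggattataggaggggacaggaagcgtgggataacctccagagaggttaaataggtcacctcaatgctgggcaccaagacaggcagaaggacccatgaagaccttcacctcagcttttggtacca

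The spacing typical of STAT6 sites (TTC and GAA with 4 bases between, present in 6.95% of all windows) was found in Retnla at position -145 from the start and in Ccl17 at position -154, and in none of the other 5 member windows. The shorter spacing of other STAT factors (3 bases between, 8.3% of windows) was found in Chil3 at position -172 and in Ccl17 at position -99. A loose NF-kappaB pattern (GGG and CC with 5 bases between) was in 50.8% of windows and so of little discrimination. It matched once each in Acod1 and Chil3 and at 2 places each in Irf4 and Mgl2, whose windows are not shown. The PU.1 core GAGGAA (28.3% of windows) matched once each in Acod1, Retnla, Irf4, Mgl2 and Ccl17, on either strand. No member window held the IRF pattern (GAAA repeated with 2 bases between, 3.44% of windows), the AP-1 pattern TGANTCA (7.81%) or the C/EBP pattern (TTGC and CAA with 2 bases between, 2.08%), and the Ear2 window held none of the 7. These matches describe letters in a window and are not binding sites. Retnla and Ccl17, the pair with the STAT6 spacing, moved in opposite directions in the bulk AVFs.

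In the bulk table, 12673 genes passed the filter on low counts (a mean of at least 100 normalized counts), and with them 9 of the 10 members, Il10 being the exception. A gene was called changed at an adjusted p under 0.01 (edgeR quasi-likelihood test with Benjamini-Hochberg adjustment over all genes tested) together with a change of at least 1 on the log2 scale in either direction. Library totals ranged from 20254173 to 67457501 counts. Levels are given as counts per 1000000 (CPM), and fold changes on the log2 scale with their standard errors. In early AVFs 7 of 9 members were called (4 higher, 3 lower), where 12.6% of all genes tested were called (6.17% higher, 6.45% lower). In mid AVFs 3 of 9 were called against 6.05% of all genes (2.74% higher, 3.31% lower), and in late AVFs 3 of 9 against 5.33% (2.49% higher, 2.85% lower). Those 3 were Acod1 and Ccl17 (higher) and Retnla (lower) at both later times. The members' median log2 fold changes for early, mid and late AVFs were 0.25, 0.99 and 0.80, beside -0.01, -0.10 and -0.09 over all genes tested. These medians were the values of Nos2 (early) and Irf4 (mid and late), neither of them called. The members moved in both directions, so the medians show no common shift. The groups did not overlap for 4 members higher and 1 lower in early AVFs, where 4.47% and 2.34% of all genes did not overlap in those directions. In mid and in late AVFs 2 members higher and 1 lower did not overlap, beside 7.32% and 4.69% of all genes in mid and 6.25% and 4.25% in late AVFs. All 3 comparisons use the same 7 contralateral veins, so they are not independent of each other.

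**Figure D1:**
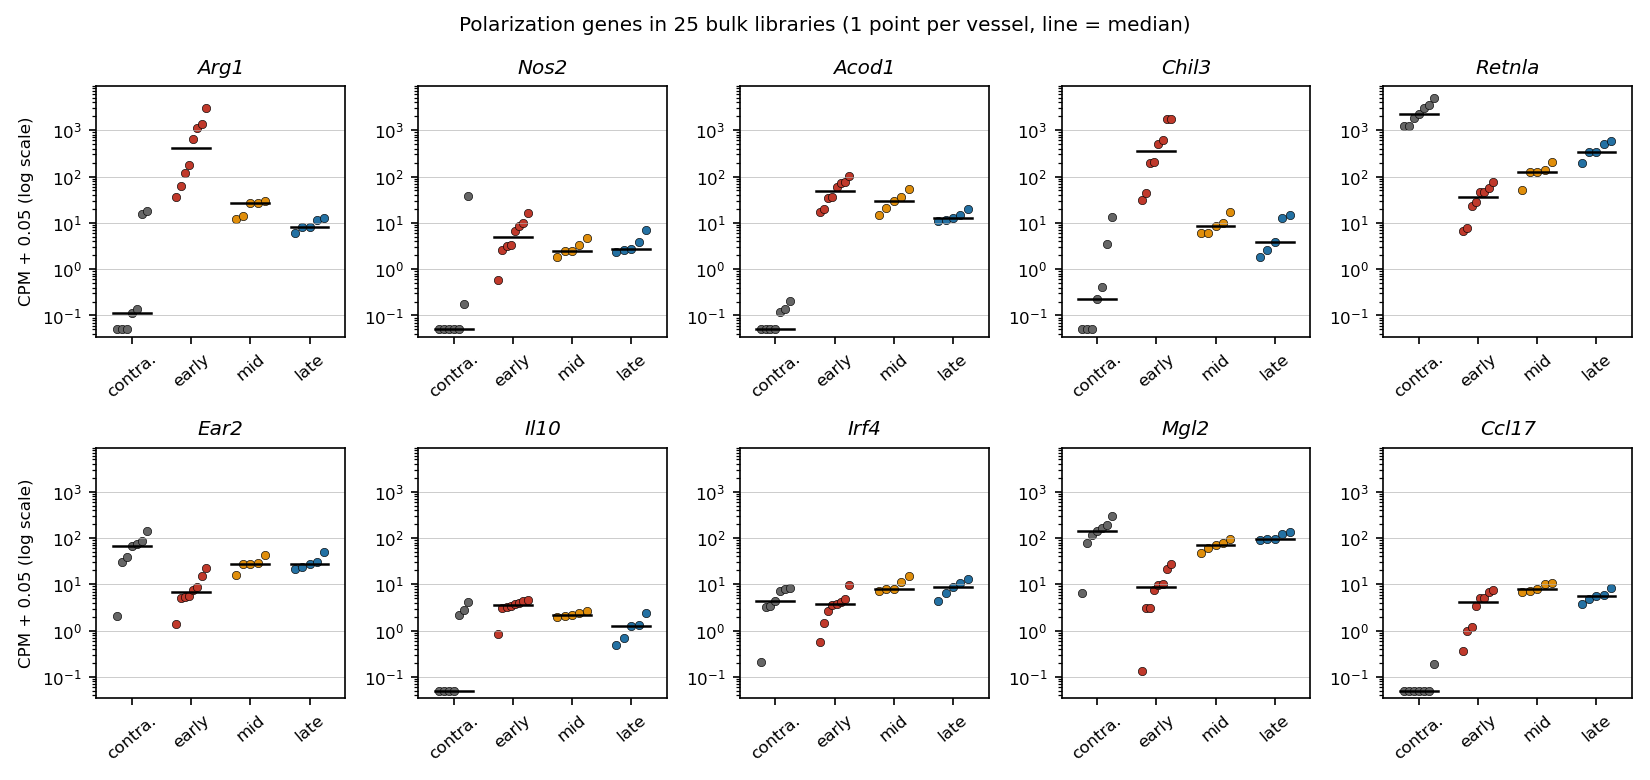
CPM plus 0.05 on a log axis for the 10 genes, 1 panel each, by group (contralateral, early, mid, late), with 1 point per vessel in the 25 bulk libraries and a line at the group median. Retnla sat between 1234 and 4933 CPM in the contralateral veins and between 6.73 and 76.0 CPM in the early AVFs, while Arg1 and Chil3 were spread over more than a decade among the early AVFs.

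Summed markers of cell types also differed between the groups. The summed CPM of 12 monocyte and macrophage markers was 2095 to 8263 in contralateral veins, 13479 to 41719 in early, 12195 to 17127 in mid and 8222 to 17105 in late AVFs, with none of the 12 at 0 in any group. The resident macrophage markers alone had medians of 1727 CPM in veins and 986, 1106 and 1957 CPM in early, mid and late AVFs. The 9 neutrophil markers summed to 116 to 362 CPM in veins, 385 to 4878 CPM in early AVFs, 214 to 486 CPM in mid and 171 to 384 CPM in late AVFs. Other sums were lower in AVFs, with medians in veins and early AVFs of 2719 and 493 CPM for endothelial, 11035 and 1797 CPM for smooth muscle, 6409 and 1920 CPM for adipocyte, 318 and 41.7 CPM for mast cell and 214 and 91.0 CPM for dendritic cell markers. The libraries also differed in the number of genes with a count, which was 11958 to 18283 in veins, 17514 to 25141 in early AVFs and 24529 to 26771 in mid and late AVFs. In bulk tissue, a change in the number of cells and a change in RNA per cell cannot be told apart, and the part that cell content and the number of detected genes had in the results below was not tested. For orientation, each member's CPM was also divided by the macrophage marker sum, and those values are given for 3 members.

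Acod1 (ENSMUSG00000022126) encodes the itaconate-producing enzyme of activated myeloid cells. In the contralateral veins it held 8 counts in all, with 4 of 7 libraries at 0 and a highest value of 0.158 CPM. Detected genes numbered 11958 to 18283 in the veins and 17514 to 26771 in the AVFs, and their part in the Acod1 values was not tested. The early AVFs ran from 16.8 CPM through a median of 47.5 to 100 CPM. Values were 29.6, 21.1, 14.9, 36 and 52.4 CPM in the mid AVFs and, in the late AVFs, 11.2, 15.0, 20.3, 11.7 and 12.8 CPM. Every AVF lay above every vein, while the late and early AVFs overlapped. The log2 fold change was 9.99 ± 0.82 (edgeR adjusted p = 1.6e-09) for early AVFs, 9.24 ± 0.81 (1.6e-08) for mid and 8.12 ± 0.78 (1.4e-07) for late AVFs, all against veins, values that depend on the few counts in the veins. The difference between late and early AVFs, -1.87 ± 0.62, did not pass the test (edgeR adjusted p = 0.0697).

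Nos2 (ENSMUSG00000020826), the inducible nitric oxide synthase, was decided by 1 library. Among the contralateral veins, 5 of 7 were at 0, vein 28 was at 0.125 CPM and vein 34 was at 37.5 CPM, above every AVF. The early AVFs ran from 0.543 CPM through a median of 4.97 to 16.3 CPM, the mid AVFs held 4.63, 2.46, 2.46, 1.82 and 3.31 CPM and the late AVFs 3.73, 6.82, 2.56, 2.24 and 2.71 CPM. With vein 34 in the fit, Nos2 did not pass the test at any time, and the log2 fold change was 0.25 ± 1.33 in early AVFs (edgeR adjusted p = 0.921), -0.87 ± 1.53 in mid (0.786) and -0.57 ± 1.52 in late AVFs (0.859). With vein 34 left out, an alternative added after seeing the data, the other 6 veins held 2 counts, all AVFs lay above them, and Nos2 was called higher in all 3 AVF groups under a lower count filter (edgeR adjusted p = 9.1e-06, 8.4e-05 and 6.9e-05). The ratio of summed rates was then 484 in early AVFs with a 95% interval of 134 to 4000, 213 in mid (58.7 to 1766) and 263 in late AVFs (72.5 to 2177), intervals that cover counting error only. Vein 34 also had the highest sum of the 5 eosinophil markers among the veins (85.1 CPM, with a median of 0.2 CPM over the 7). Of these 5, Siglecf and Epx were at 0 in every vein, and whether the sum bears on the Nos2 of vein 34 was not tested.

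Arg1 (ENSMUSG00000019987), the cytosolic arginase, was highest in the early AVFs. The contralateral veins held 18 and 15.5 CPM in veins 27 and 35, 0.0907 and 0.0625 CPM in veins 34 and 28, and 0 in veins 31, 632 and 633. Detected genes numbered 17595 and 15714 in veins 27 and 35, and 13215, 13329 and 18283 in veins 31, 632 and 633. The part of gene detection in these values was not tested. The early AVFs held 36.3 CPM at the lowest, 418 CPM at the median and 2989 CPM at the highest, the last in AVF 6. The mid AVFs held 26.8, 11.9, 14.3, 29.9 and 26.2 CPM and the late AVFs 12.5, 7.93, 6.09, 8.13 and 11.7 CPM. Every early AVF lay above every vein and above every mid and late AVF. The mid AVFs lay on both sides of the 2 highest veins, whereas every late AVF lay below those 2 veins and above the other 5. Arg1 was called higher in early AVFs (log2 fold change 7.39 ± 1.41, edgeR adjusted p = 0.00036) but was not called in mid (2.17 ± 1.19, 0.257) or late AVFs (0.94 ± 1.18, 0.681). Without veins 27 and 35, chosen after seeing the data, Arg1 was called in mid and late AVFs as well (edgeR adjusted p = 1.4e-05 and 7.5e-05), the other 5 veins holding 3 counts. The later decline, -5.22 ± 1.48 from early to mid (adjusted p = 0.0421) and -6.45 ± 1.58 from early to late (0.0111), missed the adjusted p of 0.01 in this edgeR fit. Arg1 CPM per 1000 CPM of macrophage markers had medians of 11.6, 1.56 and 0.89 for early, mid and late AVFs and of 0.01 for veins.

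Chil3 (ENSMUSG00000040809), a chitinase-like lectin secreted by myeloid cells, followed Arg1 closely. Its contralateral values were 13.1 CPM in vein 27, 3.51 CPM in vein 35 and at most 0.363 CPM elsewhere, with 3 veins at 0. The early AVFs ran from 30.6 CPM through a median of 354 to 1741 CPM. By mid time the AVFs held 9.86, 6.09, 6.06, 8.61 and 16.8 CPM and the late AVFs 1.76, 14.9, 3.89, 2.52 and 12.8 CPM. Early AVFs overlapped no other group. The log2 fold change against veins was 8.0 ± 1.34 in early AVFs (edgeR adjusted p = 7.9e-05), and 1.95 ± 1.10 (0.276) and 1.55 ± 1.10 (0.412) in mid and late AVFs. Between early and late AVFs Chil3 fell by 6.45 on the log2 scale (SE 1.46, edgeR adjusted p = 0.00652), where 3.01% of all genes were called (0.726% higher, 2.28% lower). That call was lost in 10 of 30 other settings (other filters, size factors, sex as a term, DESeq2 and single libraries left out), and without early AVFs 5, 6 and 7 the value was -4.80 (0.0786). Veins 27 and 35, the highest for Chil3, were also left out after seeing the data. Chil3 was then called in mid (6.44, edgeR adjusted p = 0.00061) and late AVFs (6.04, 0.0012). The veins kept were at most at 0.363 CPM, so these calls depend on that choice of veins. The paralog Chil4 averaged at most 0.0605 CPM in a group, and how the counting treated reads shared by the pair is not given in the sources used here.

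Retnla (ENSMUSG00000061100), the resistin-like protein of alternatively activated macrophages, ran the other way. The contralateral veins held 1234 CPM at the lowest, 2197 CPM at the median and 4933 CPM at the highest, and the early AVFs 6.73, 36.8 and 76.0 CPM. In mid AVFs Retnla was at 50.6, 124, 208, 141 and 123 CPM and in late AVFs at 598, 192, 340, 504 and 338 CPM. Every vein lay above every AVF, and every late AVF above every early AVF. The log2 fold change against veins was -6.13 ± 0.51 in early (edgeR adjusted p = 2.3e-09), -4.30 ± 0.58 in mid (9.8e-06) and -2.69 ± 0.53 in late AVFs (0.0012), all called. From early to late AVFs Retnla rose by 3.44 ± 0.47 on the log2 scale (edgeR adjusted p = 0.00025). The rise from early to mid, 1.83 ± 0.46, missed the threshold (0.0206). Divided by the macrophage marker sum, the medians were 497 in veins and 1.59, 9.29 and 41.2 in early, mid and late AVFs, per 1000 CPM of markers. Retnlg, a neighbouring resistin-like gene listed among the neutrophil markers, averaged 6.59 CPM in veins and 97.5 CPM in early AVFs and was called higher there (3.88, edgeR adjusted p = 0.008).

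Mgl2 (ENSMUSG00000040950), a receptor for galactose and N-acetylgalactosamine carried by macrophages and dendritic cells, was lower in early AVFs and higher again in late ones. The contralateral veins ran from 6.50 CPM in vein 28 through a median of 144 to 296 CPM, and the early AVFs from 0.0814 through 8.70 to 27.5 CPM. Mgl2 in mid AVFs was at 61.0, 48.5, 95.5, 71.1 and 79.0 CPM and in late AVFs at 138, 91.7, 123, 94.3 and 94.8 CPM. Early AVFs overlapped the veins only through vein 28 and lay below every mid and late AVF. Vein 28 had the highest summed B cell markers (3390 CPM, with a median of 395 over the 7 veins) and dendritic cell markers (510 CPM, median 214). It also had the fewest detected genes of the veins (11958), and the part of these in its Mgl2 was not tested. Mgl2 was called lower in early AVFs (-3.80 ± 0.68, edgeR adjusted p = 0.00016), not in mid (-1.01 ± 0.72, 0.408) or late AVFs (-0.40 ± 0.70, 0.784). It was called higher in late than in early AVFs (3.39 ± 0.69, edgeR adjusted p = 0.00403), a call lost in 5 of 30 other settings and without early AVFs 5, 6 and 7 (2.89, 0.0174). Per 1000 CPM of macrophage markers the medians were 32.3 in veins and 0.28, 4.67 and 9.75 in early, mid and late AVFs, so that on this scale every late AVF (at most 11.5) lay below the vein median. Its close paralog Clec10a averaged 91.2 CPM in veins and 38.9, 38.2 and 43.4 CPM in early, mid and late AVFs, and was not called (early -1.23, edgeR adjusted p = 0.0181).

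Ear2 (ENSMUSG00000072596) was also lower early. The contralateral veins ran from 2.00 CPM in vein 34 through a median of 66.0 to 141 CPM, and the early AVFs from 1.36 through 6.63 to 22.9 CPM. In the mid group Ear2 was at 15.9, 28.2, 42.5, 27.4 and 27.2 CPM and in the late group at 49.9, 23.1, 21.4, 27.4 and 29.9 CPM. The early group overlapped the veins only through vein 34. Ear2 was called lower in early AVFs (-2.81 ± 0.58, edgeR adjusted p = 0.00078) and not in mid (-1.15 ± 0.64, 0.271) or late AVFs (-1.05 ± 0.64, 0.329). The related genes Ear1, Ear6 and Ear10 averaged at most 0.167 CPM in a group, and reads shared within this family make the Ear2 level uncertain.

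Ccl17 (ENSMUSG00000031780), a chemokine that attracts cells carrying Ccr4, was at 0 in 6 of 7 contralateral veins, and vein 35 held 4 counts (0.140 CPM). The early AVFs ran from 0.311 CPM through a median of 4.19 to 7.41 CPM. The mid AVFs held 7.98, 7.09, 10.8, 10.2 and 6.74 CPM and the late AVFs 5.64, 4.86, 8.22, 5.69 and 3.74 CPM. All 18 AVFs lay above all veins. Ccl17 was called higher in early (7.18 ± 1.04, edgeR adjusted p = 1.1e-05), mid (8.36 ± 1.11, 8.4e-06) and late AVFs (7.76 ± 1.08, 2.1e-05). The AVF groups overlapped each other. Ccl22, the other ligand of Ccr4, averaged 0.03 CPM in veins and 10.1, 13.5 and 11 CPM in early, mid and late AVFs and was called higher at all 3 times.

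Irf4 (ENSMUSG00000021356), which drives alternative macrophage and lymphocyte programs, and Il10 (ENSMUSG00000016529) were not called in any comparison. Irf4 ran from 0.157 through 4.4 to 8.20 CPM in veins and from 0.529 through 3.63 to 9.86 CPM in early AVFs. The mid AVFs held 8.05, 7.76, 15.0, 6.98 and 11.2 CPM and the late AVFs 10.6, 13.1, 4.29, 6.35 and 8.52 CPM. All 4 groups overlapped, and the largest log2 fold change against veins was 0.99 ± 0.70 in mid AVFs (edgeR adjusted p = 0.406). Il10 was at 0 in 4 of 7 veins and reached 4.03 CPM in vein 27, and the early AVFs ran from 0.811 through 3.55 to 4.48 CPM. Mid AVFs were between 1.88 and 2.63 CPM and late AVFs between 0.438 and 2.35 CPM. Under the lower count filter, which tested all 10 members among 20076 genes, Il10 in early AVFs gave 1.34 ± 1.04 (edgeR adjusted p = 0.364).

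**Figure D2:**
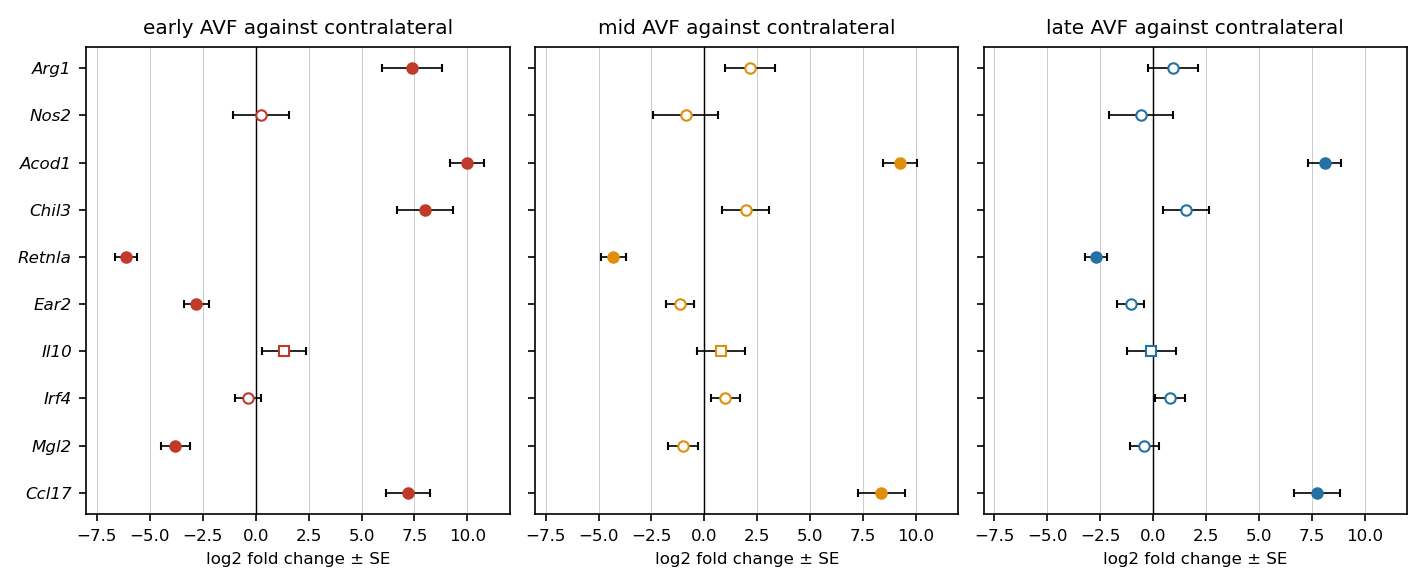
Log2 fold changes of the members against the contralateral veins in early, mid and late AVFs, with bars of 1 standard error from the edgeR fit, filled symbols where a gene was called, and a square for Il10, which comes from the fit with the lower count filter. Acod1 was between 8.12 and 9.99 and Ccl17 between 7.18 and 8.36 in all 3 groups, Retnla was at -6.13, -4.30 and -2.69, and Arg1 and Chil3 were at 7.39 and 8.0 in early and at 0.94 and 1.55 in late AVFs.

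Between AVF groups, no member was called from early to mid by edgeR, where 0.00789% of genes were called. Under an unadjusted edgeR p of 0.05 were 5 of 9 members, beside 1614 of 12673 genes. The DESeq2 Wald test called 4 members (Retnla and Mgl2 higher, Arg1 and Chil3 lower), beside 472 of 12673 genes. With 1 library left out, edgeR called Chil3 lower without early AVF 1, and Chil3 lower and Mgl2 higher without early AVF 10. From early to late 3 of 9 were called, namely Retnla and Mgl2 (higher) and Chil3 (lower), where 3.01% of all genes were called. The DESeq2 Wald test called 5 there, beside 753 of 12673 genes, with Arg1 and Acod1 also lower, and Arg1 was called in 9 of 30 other settings. No member was called from mid to late by edgeR (0% of genes) or DESeq2 (1 of 12673 genes). Under an unadjusted edgeR p of 0.05 was 1 of 9 members, beside 39 of 12673 genes. The early AVFs differed strongly among themselves. AVFs 5, 6 and 7 held Arg1 at 1332, 2989 and 1110 CPM, against 36.3 to 655 CPM in the other 5. Over the 8 early AVFs the Spearman correlation of Arg1 was 0.90 with Chil3 and -0.88 with Mgl2, a description over libraries of 1 group whose cell content also differed. Summed neutrophil markers were highest in AVFs 6, 5 and 3 (4878, 3897 and 2861 CPM), platelet markers highest in AVFs 6 and 5 (12753 and 9435 CPM) and fibroblast markers lowest in AVFs 7, 6 and 5 (3422, 5597 and 10829 CPM), and their part in these levels was not tested. Without AVFs 5, 6 and 7 the numbers of members called against veins were again 7 (early), 3 (mid) and 3 (late), and 1 was called from early to late.

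Levels of different genes can be compared only per length. As CPM per kilobase of exon (mean over a group, GENCODE M21 lengths), the contralateral order was Retnla (4261), Ear2 (87.1), Mgl2 (68.3) and then Arg1 (2.16), Chil3 (1.5), Nos2 (1.22), Irf4 (1.00), Il10 (0.962), Ccl17 (0.039) and Acod1 (0.017). In early AVFs the highest means were those of Chil3 (386) and Arg1 (364), followed by Retnla (60.6), and the ranges of all 3 overlapped (18.8 to 1067, 16.3 to 1342 and 11.2 to 127). After them came Acod1 (19.7), Ear2 (12.4), Ccl17 (7.33) and Mgl2 (4.92). In mid AVFs Retnla (216, at least 84.4) lay above Ear2 (39.3, at most 59.1) and Mgl2 (33.9), which overlapped each other, and then came Ccl17 (16.7), Acod1 (11.7), Arg1 (9.78) and Chil3 (5.81), each overlapping the next. In late AVFs Retnla (658) was the highest, with no overlap with Mgl2 (51.7) and Ear2 (42.2), which overlapped each other, and Ccl17 (11), Acod1 (5.40), Chil3 (4.41) and Arg1 (4.16) came after them.

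The genes whose levels ranked the 25 bulk libraries most like a member's were the following, with Spearman's rho as a description over libraries that share 4 groups. Arg1 was nearest to Cdkn3 (0.964), Samsn1 and Spp1. Acod1 was nearest to Il1rn (0.964), the interleukin-1 receptor antagonist, then Cstdc4 and Cxcl2. Chil3 was nearest to Ncf4 (0.934), a subunit of the phagocyte oxidase, then Slfn4 and Cenph. Retnla was nearest to Plpp3 (0.952), Wfdc1 and Gstm1, and Mgl2 to Zhx3 (0.947), Rab30 and Enpp3. For Ear2 (Tcaf1, 0.878), Ccl17 (Serpinb9b, 0.852), Nos2 (Fancm, 0.838), Il10 (Mad2l2, 0.804) and Irf4 (Lrrc61, 0.792) the best match was weaker.

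Other genes of these pathways were read from 4 lists, whose counts stand beside 6.17% of all genes called higher and 6.45% lower in early, 2.74% and 3.31% in mid and 2.49% and 2.85% in late AVFs. Of 25 classical activation genes 19 were tested, 7 were called higher and none lower in early AVFs, and 1 was called in mid and in late AVFs. Tnf (6.59), Fpr2 (5.77), Cd80 (4.32) and Il1b (4.05) had the largest early log2 fold changes, and Tnf was the gene still called in mid (5.22) and late AVFs (4.47). Of 20 alternative activation genes 17 were tested, with 4 higher and 3 lower in early AVFs, 4 higher and 2 lower in mid and 4 higher and 1 lower in late AVFs. The 4 that rose early were Il1rn (9.01), Ccl22 (8.10), Trem2 (7.18), a lipid receptor, and Clec7a (3.44), the β-glucan receptor, and those that fell included Cd209a (-3.49), a lectin of dendritic cells and macrophages. The list medians were 2.67, 1.61 and 1.54 for classical and 0.38, -0.70 and -0.26 for alternative activation in early, mid and late AVFs, beside medians over all genes tested between -0.10 and -0.01. Il1b averaged 7.43 CPM in veins and 123, 76.0 and 43.7 CPM in early, mid and late AVFs, and its later values were not called (edgeR adjusted p = 0.0417 and 0.124).

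Of 22 polarizing cytokines and receptors, 17 were tested and 4 rose in early AVFs: Tgfb1 (4.30), the receptor subunits Csf2rb (1.70), Il2rg (1.68) and Ifngr2 (1.22). Tgfb1 was the 1 called in mid and late AVFs. Of 16 genes of arginine metabolism 14 were tested. Arg2, the mitochondrial arginase, rose in early AVFs from 0.0951 to 11.9 CPM (6.86) and was called in mid (4.87) and late AVFs (4.20), Ddah1 rose early (2.60), and Nos3, the endothelial nitric oxide synthase (-2.15), and Oat, which takes up ornithine (-1.33), fell. Arg1 and Arg2, which share a substrate, both rose early, and Arg2 but not Arg1 was called in mid and late AVFs, a difference between the genes that was not itself tested. The messages of the polarizing cytokines were scarce in bulk: Ifng was at 0 in all 7 veins and averaged at most 0.151 CPM in an AVF group, Il13 had 2 counts in 25 libraries, and Il4 averaged 0.642 CPM in veins and 1.35 to 1.66 CPM in AVFs.

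In the single-cell matrices, 16893 of 26438 barcodes passed the filter (200 to 6000 genes, at most 10% mitochondrial counts), namely 6319 contralateral, 4753 early and 5821 late cells, with median depths of 2751, 8951 and 15425 UMIs. Between 14 and 19 barcodes were shared by each pair of libraries. Cells were clustered without the members, their paralogs and the marker genes and were named from marker genes as mono/macro-like, neutrophil-like and so on. Mono/macro-like cells made up 686 contralateral (10.9%), 1983 early (41.7%) and 1612 late cells (27.7%). Most of the contralateral ones lay in 1 cluster (599 cells) that held few AVF cells, and the AVF ones in 2 other clusters, so the libraries were compared over a class whose make-up differed. All values are sums of UMIs in 1 library per condition, with exact Poisson 95% intervals that cover counting error only.

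Within mono/macro-like cells the early direction of the 7 members called in bulk was the same as there, although for Ccl17 and Retnla the early level rested on 5 and 9 cells. Arg1 was at 3.54 CPM (interval 1.83 to 6.19) in contralateral, 266 (260 to 272) in early and 50.3 (47.5 to 53.2) in late cells. Chil3 was at 10.0, 83.8 and 17.0 CPM and Acod1 at 17.4, 168 and 177 CPM. The Acod1 level therefore stayed 10.1-fold (7.84 to 13.3) above the contralateral level in late cells, while Chil3 was 1.69-fold (1.19 to 2.48) above it. Retnla was at 994 CPM (961 to 1028) in contralateral, 17.5 (16.0 to 19.1) in early and 556 (547 to 566) in late cells. Mgl2 was at 926, 10.2 and 234 CPM. Retnla was 56.7-fold (51.6 to 62.3) and Mgl2 91.2-fold (80.9 to 103) lower in early than in contralateral mono/macro-like cells. In late cells both lay between the early and the contralateral level.

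Other members had values in this class unlike those of whole vessels in bulk, which is a different measure, or were rare. Ear2 was at 10.6 CPM in contralateral, 1.52 in early and 37.6 in late mono/macro-like cells, the last 3.54-fold (2.54 to 5.09) above the first. In bulk the late AVFs were below the veins without passing the test. Of contralateral Ear2 UMIs, mono/macro-like cells held 29.0% and dendritic-like cells 58.1%. Irf4 was at 59.9, 6.79 and 49.6 CPM, thus 8.82-fold (7.21 to 10.8) lower in early mono/macro-like cells. The early bulk value was -0.37 ± 0.63 over all cells of the vessel. Of contralateral Irf4 UMIs, mono/macro-like cells held 27.1% and unnamed cells 39.6%, so the 2 values need not match. Il10 was at 94.5, 242 and 238 CPM. Ccl17 had 2 UMIs in 1 of 686 contralateral cells, 98 UMIs in 5 of 1983 early cells (3.40 CPM) and 1519 UMIs in 57 of 1612 late cells (63.7 CPM), so that a few cells carried the early level. Nos2 was rare, with 0 UMIs in 686 contralateral cells, which allows a share of cells with a UMI of up to 0.437%, 13 UMIs in 1983 early and 26 UMIs in 1612 late cells.

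The share of mono/macro-like cells with an Arg1 UMI was 0.437% in contralateral, 28.2% in early and 5.27% in late cells, beside 2.47% of early neutrophil-like cells, which were shallower (median 3489 against 13154 UMIs). After thinning every cell to 1000 UMIs the Arg1 shares were 0.174%, 10.1% and 1.75%. For Retnla the shares were 33.2%, 0.454% and 13.7% (22.8%, 0.152% and 4.37% thinned). In the contralateral library 13.4% of 880 erythroid-like cells also had a Retnla UMI (6.26% thinned), and the source of these UMIs was not tested. All 506 early Retnla UMIs of the class lay in 9 of 1983 cells.

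**Figure D3:**
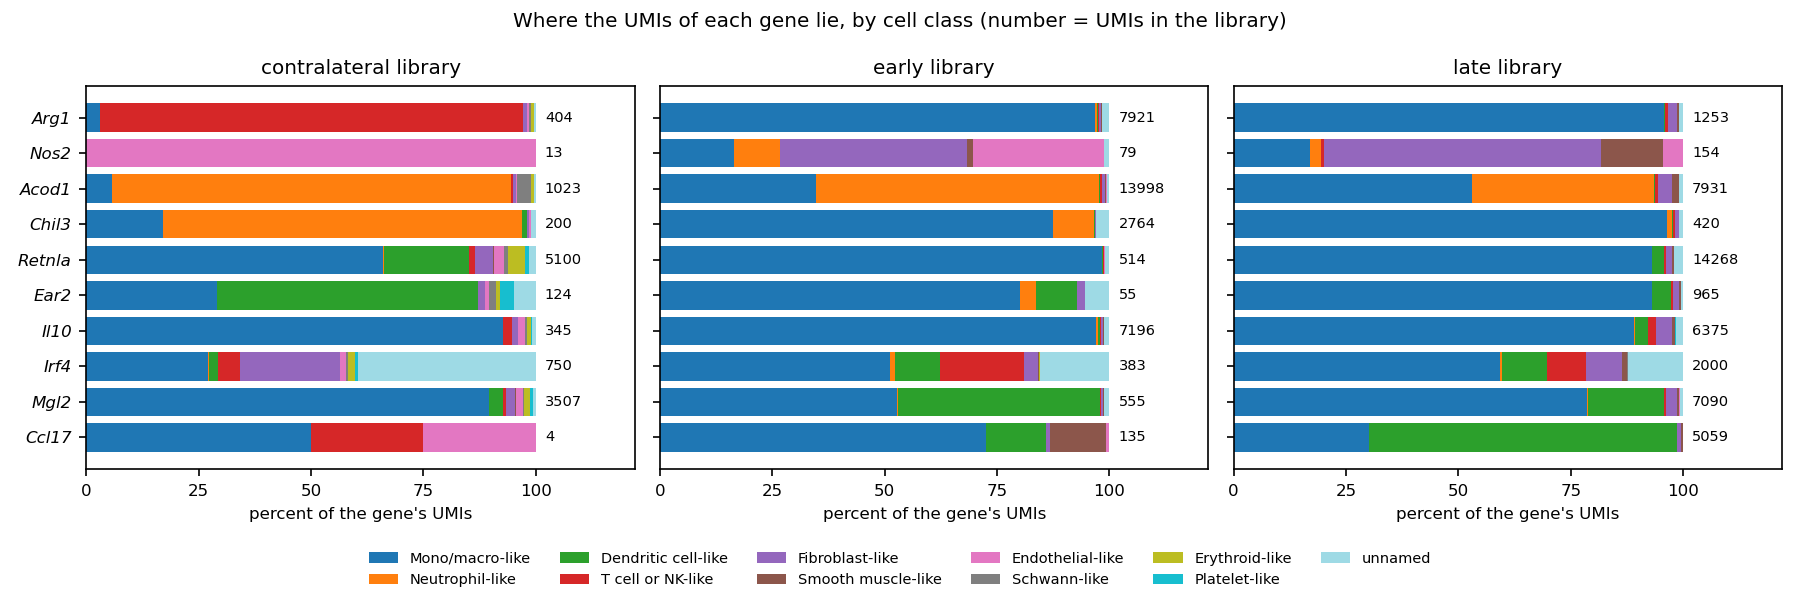
Share of each member's UMIs (percent of all its UMIs in a library) by cell class, 1 panel per library and 1 stacked bar per gene, with the number of UMIs at the bar's end. Arg1 UMIs were 94.1% from the T/NK-like class in the contralateral library, in cells of which few had T cell receptor genes. They were 96.8% from mono/macro-like cells in the early library, and Ccl17 UMIs in the late library were 68.5% from dendritic-like cells.

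Other cell classes also held members. Acod1 was highest in neutrophil-like cells, at 4196 CPM in contralateral, 2710 in early and 3177 in late cells, and 88.7%, 89.2% and 83.4% of them had a UMI. These cells numbered 62, 768 and 277 and held 88.7% of the contralateral, 63.1% of early and 40.3% of late Acod1 UMIs. In the late library the mono/macro-like cells held more (4212 against 3199 UMIs). The Chil3 of contralateral neutrophil-like cells (740 CPM) was 160 UMIs in 2 cells. Ccl17 was at 1162 CPM (1123 to 1201) in the 152 late dendritic-like cells, of which 24.3% had a UMI, against 63.7 CPM in late mono/macro-like cells. Those dendritic-like cells had no Ccl17 UMI in the contralateral library and 18 in the early one.

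Dendritic-like cells also held Mgl2 (295, 126 and 402 CPM in contralateral, early and late cells), and in the contralateral library they held Retnla at 2536 CPM (970 UMIs in 15 of 75 cells) and Ear2 at 188 CPM (13 of 75 cells). Irf4 in the contralateral library was at 259 CPM in the cells left unnamed, most of which lay in a cluster led by immunoglobulin genes. Nos2 had 13, 79 and 154 UMIs in the 3 libraries. Endothelial-like cells held all 13 contralateral, 23 early and 7 late ones, and fibroblast-like cells held 33 early and 95 late ones. In the contralateral library 380 of 404 Arg1 UMIs lay in 105 cells of the T/NK-like class, of which 0 had Cd3d and 12 had Nkg7, both markers of that class. These sources are given per library and rest on pooled vessels.

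Mono/macro-like cells were split into 7 subclusters with the members left out of the clustering. A subcluster named from resident macrophage markers held 630 of the 686 contralateral cells and carried Retnla at 1150 and Mgl2 at 1010 CPM. The early cells lay mainly in 3 others. One with inflammatory macrophage markers (935 early cells) had Arg1 at 108 CPM and Chil3 at 48.7 CPM. That with monocyte markers (581 early cells) had the highest Chil3 (220 CPM) and Acod1 at 285 CPM. Another with inflammatory macrophage markers (312 early cells) had the highest Arg1 (948 CPM) and Acod1 (326 CPM).

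In the late library that last subcluster (223 cells) had Arg1 at 230 CPM, and it was also the one with the highest late Retnla (2211 CPM), Ccl17 (276 CPM), Ear2 (160 CPM) and Irf4 (153 CPM). Late Mgl2 was spread more evenly, at 304 CPM there and at 396 CPM in a subcluster of 437 late cells that met the rule for resident markers although heat shock genes led it. An unnamed subcluster led by interferon-induced genes (50 early and 564 late cells) had the highest Il10, at 858 CPM early and 461 CPM late. Depth differed between subclusters, from a median of 2877 to 25192 UMIs.

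**Figure D4:**
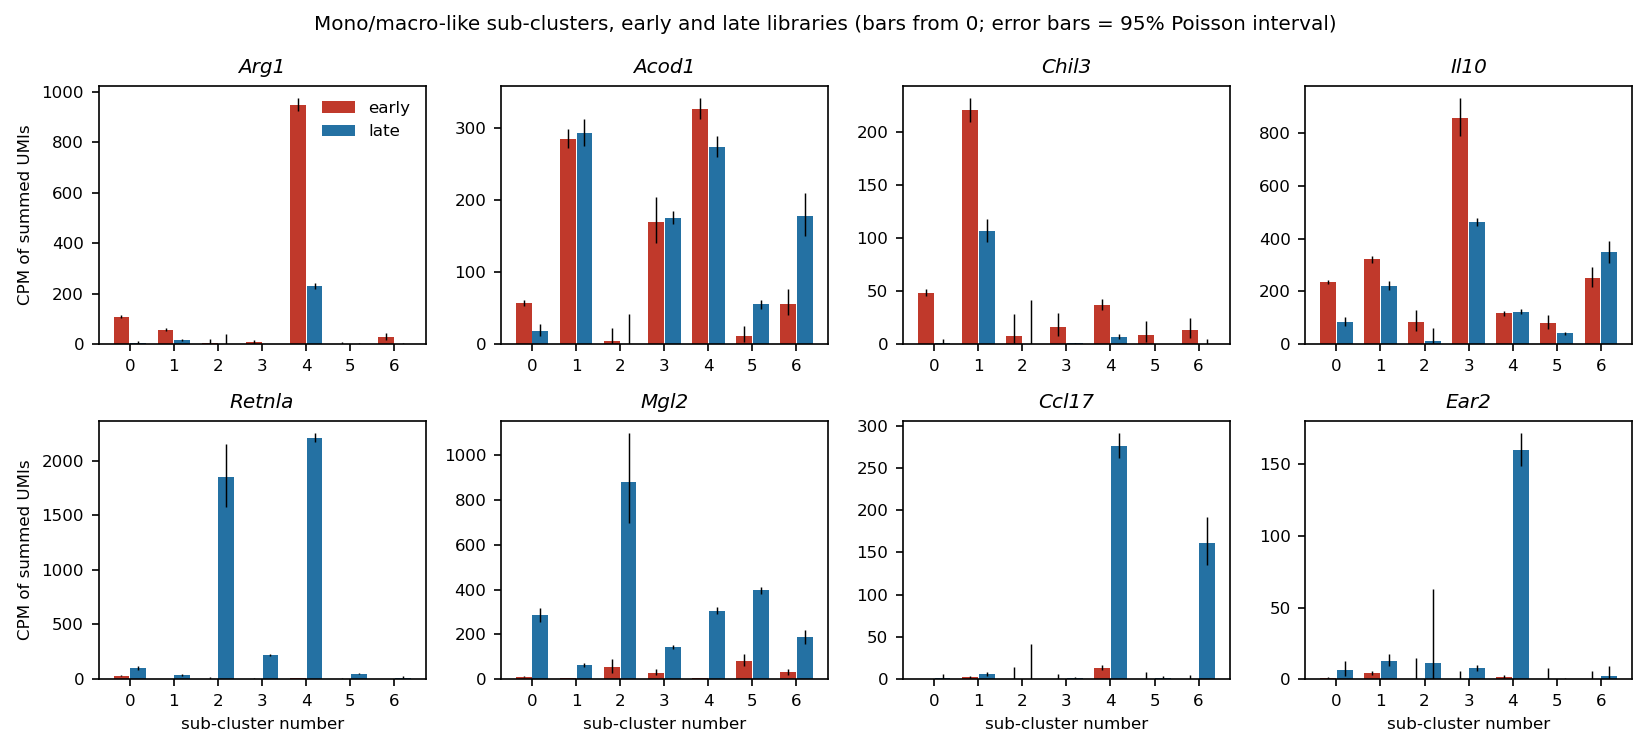
CPM of summed UMIs for 8 members in the 7 subclusters (numbered 0 to 6) of mono/macro-like cells, for the early and late libraries, with 95% Poisson intervals as error bars. Subcluster 4 held the highest Arg1 (948 CPM early, 230 CPM late) and, in the late library, the highest Retnla (2211 CPM), and the resident-like subcluster 2 rests on 17 early and 9 late cells.

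The members were also read cell by cell. Of 560 early mono/macro-like cells with Arg1, 46.2% also had Acod1, beside 25.7% of the 1423 cells without Arg1, but the cells with Arg1 were deeper (median 16751 against 12359 UMIs). Of 85 late cells with Arg1, 10.6% had Mgl2, beside 44.9% of the 1527 cells without it (median 14940 against 13392 UMIs). Of 221 late cells with Retnla, 24.4% had Ear2 and 59.7% had Mgl2, beside 3.09% and 40.4% of cells without Retnla (median 15781 against 13075 UMIs). Of 57 late cells with Ccl17, 52.6% had Irf4 and 75.4% had Mgl2, beside 18.4% and 41.9% of the rest, which were shallower (median 13354 against 19653 UMIs). The part of depth in these shares was not tested. These are shares of cells in 1 library, with no test.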

How the data were processed

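Bulk RNA-seq of 25 vessels and single-cell RNA-seq of 3 pools of 10 vessels were analysed from the deposited files. The authors deposited whole-number counts per gene for the bulk libraries (an ultra-low-input poly(A) protocol, aligned with STAR to mm10/GRCm38 per the submitters' processing notes) and UMI counts per barcode from Cell Ranger for the single cells, both without normalization. The bulk gene identifiers include ones of later annotations than the single-cell list, and the counting tool is not given in the sources used here. Of 56980 bulk identifiers, 32210 were named from the single-cell gene list and 19962 from the reference table, and 4808 kept no symbol.

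Totals ran from 20254173 to 29913427 counts in contralateral veins, 23676215 to 67457501 in early, 27021483 to 33395623 in mid and 27855449 to 36879746 in late AVFs. Genes with a mean of at least 100 normalized counts (12673) were tested with edgeR 4.0.16 in R 4.3.3 (quasi-likelihood, TMM, 1 fit of 4 group means over 25 libraries), with Benjamini-Hochberg adjustment over all of them, and the code was tested on simulated counts. The filter follows the study's methods and the call at an adjusted p under 0.01 its bulk comparison, while its methods name 0.05 for genes entering enrichment tests, a setting tried as an alternative. Replicates are separate vessels per the labels. Group CPM are means of TMM-scaled values.

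Barcodes were kept at 200 to 6000 genes and no more than 10% mitochondrial UMIs, and were clustered with scanpy 1.11.5 (2000 variable genes without members, pathway lists or markers, 12 components, 20 neighbors, leiden resolution 0.5). A shallow cluster was left unnamed by a rule set after seeing it, and counting it as mono/macro-like (2605 early and 2034 late cells in place of 1983 and 1612) moved 5 of the single-cell values beyond their interval. Scrublet called 0, 2 and 120 doublets in the contralateral, early and late libraries, numbers too low in the first 2 to rely on, and no cell was removed as a doublet. No source used here says whether the authors took doublets out before deposit. The stated filter left 16893 cells, more than the study shows. Fractions of cells carry exact binomial and CPM exact Poisson intervals at 95%. A share at 0 is given with the limit of 3 counts. Intervals cover counting error only.

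The members and lists were chosen with earlier results of these data known. All 10 members were named. From each pathway list up to 4 called genes with the largest early change were named, and for each member the 3 genes most like it. Il4, Il13, Ifng and the genes of the Arg1-positive lymphoid cells were chosen after their values were seen. Promoters came from RefSeq windows of GRCm38.p6, and gene lengths from GENCODE M21, which may differ from the annotation of the counts. Alternatives were a filterByExpr filter, no filter, DESeq2 1.42.0 and its size factors, sex as a term, an adjusted p under 0.05 and leaving out each library.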

Additional observations from a re-analysis of the deposited data

Results flagged for a closer look

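In 6 of the 40 combinations of a member and a bulk group, 1 library stood far from the rest by Dixon's test (95% level). That level means about 1 in 20 groups flagged by chance for normally distributed values. Some of these groups were mostly at 0, so the number flagged by chance here is not known. Nos2 in contralateral vein 34 was at 37.5 CPM, and the next vein was at 0.125 CPM. Chil3 in contralateral vein 27 was at 13.1 CPM, and the next was at 3.51 CPM. Ccl17 in contralateral vein 35 was at 0.140 CPM with the other veins at 0, a value of 4 counts. Arg1 in early AVF 6 was at 2989 CPM, and the next early AVF was at 1332 CPM. Il10 in early AVF 3 was the lowest of its group at 0.811 CPM, and the next was at 3.02 CPM. Irf4 in early AVF 1 was at 9.86 CPM, and the next was at 4.75 CPM. The summed neutrophil markers of early AVF 6 were the highest of the early group at 4878 CPM, and their part in its Arg1 level was not tested.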

How the results depend on the processing

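No paired analysis was possible because the groups share no replicate numbers. For the members, the calls against contralateral veins (7 early, 3 mid, 3 late) had the same counts in each of the 25 fits without 1 library, the late against early count ran from 1 to 4 and the mid against early count from 0 to 2. At an adjusted p under 0.05 the members called were again 7, 3 and 3 against veins, with 4 for mid against early and 4 for late against early. Counts over all genes moved more. Against contralateral veins the 1599, 767 and 676 genes called became, in the order early, mid, late, 3803, 2823 and 2696 with the filterByExpr filter, 3938, 2728 and 2567 with no filter, 2440, 1418 and 1293 with DESeq2, and 2520, 1421 and 1304 at an adjusted p under 0.05. For mid against early the 1 gene called became 0 with filterByExpr, with DESeq2 size factors and with sex as a term, 472 with DESeq2 and 482 at an adjusted p under 0.05 (1614 genes at an unadjusted p under 0.05). For late against early the 381 genes became 208 with no filter, 753 with DESeq2 and 795 at an adjusted p under 0.05. For late against mid edgeR called 0 and DESeq2 1, with 39 genes at an unadjusted p under 0.05. Leaving out 1 library gave 1370 to 1825, 530 to 955 and 432 to 889 genes against veins (early, mid, late), 0 to 305 for mid against early, 32 to 549 for late against early and 0 for late against mid.

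Other alternatives were added after seeing the data. Without early AVFs 5, 6 and 7 the early count against veins was 970, mid against early 0 and late against early 35. Without veins 28 and 34 late against early gave 670, and without veins 27 and 35 mid against early gave 0. With the filterByExpr filter and vein 34 left out the counts were 3766, 2676 and 2499 against veins, 0 for mid against early and 230 for late against early. Nos2 changed direction with the veins: mid against contralateral was 9.52 without veins 28 and 34 and 7.24 without vein 34 under filterByExpr, and late against contralateral was 9.83 and 7.57, fitted values that rest on 0 or 2 counts in the veins. The cause of these shifts was not tested.

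Vein 34 decided Nos2, and veins 27 and 35 decided the mid and late calls of Arg1 and Chil3. From early to late the call of Retnla held in each fit, while that of Mgl2 was lost without early AVF 5 or any 1 of late AVFs 16, 17, 19 and 24, and that of Chil3 was lost without any 1 of these, of early AVFs 3, 6 and 7 or of late AVF 23, and with filterByExpr. In the single-cell class, counting the shallow cluster in gave 255 CPM in place of 266 for early Arg1, 161 in place of 168 for early Acod1, 231 in place of 242 for early Il10, 232 in place of 238 for late Il10 and 227 in place of 234 for late Mgl2. With at most 5% mitochondrial counts 8 of these values moved beyond their interval, among them contralateral Retnla (794 in place of 994 CPM). Genes near 0 in the veins have fold changes that depend on the prior count.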

Other observations

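Of the 404 Arg1 UMIs of the contralateral single-cell library, 12 lay in mono/macro-like cells. In 1 T/NK-like cluster 105 of 472 contralateral cells (22.2%) held 380 Arg1 UMIs, at most 34 in 1 cell, while the other T/NK-like cluster held none in 148 cells. Of the 105 cells, 101 had Gata3, a transcription factor of type 2 lymphocytes, 102 had Il1rl1, the interleukin-33 receptor, 99 had Il7r, 95 had Rora, 75 had Klrg1 and 58 had Areg. Of them 2 had Cd3e, 1 had Trac and 0 had Cd3d, genes of the T cell receptor complex, and 12 had Nkg7, another marker of the class. Among the 367 cells of the cluster without Arg1, 144 had Gata3, 76 had Il1rl1, 173 had Cd3d and 84 had Nkg7. The cells with Arg1 were deeper (median 8224 against 3718 UMIs). In the same cluster Arg1 was found in 4 of 137 early cells (33 UMIs) and 7 of 532 late cells (10 UMIs). The genes were chosen after their values were seen, and the cells are from 1 pool per condition, with no test.

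The messages of polarizing cytokines, scarce in bulk, had distinct sources among the cells. Il13 had 90, 5 and 88 UMIs in the contralateral, early and late libraries, of which T/NK-like cells held 85, 5 and 81. Ifng had 548, 349 and 800 UMIs in T/NK-like cells. Il4 had 235, 11 and 21 UMIs, of which contralateral neutrophil-like cells held 105. Il33 came from fibroblast-like cells, with 1930 of 2222, 3096 of 3374 and 17848 of 18422 UMIs. Csf2 UMIs were 904 of 1036 from T/NK-like cells in the contralateral library and 1186 of 1548 from fibroblast-like cells in the late one. Ccl22 UMIs were 2642 of 3265 from dendritic-like cells in the late library, the class that also held most late Ccl17. Depth differed between libraries (median 2751, 8951 and 15425 UMIs per cell), so the UMI numbers are not levels.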
